A study of Mus musculus with 12 samples.

Results

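The transcriptional response of wild-type mouse hearts was measured after transverse aortic constriction (TAC), a surgical narrowing of the aorta that raises the pressure against which the left ventricle pumps. All 3 arrays titled as control hearts with TAC were compared with all 3 titled as control hearts with sham surgery, 6 of the 12 arrays of the series, across every probe that is not an array control. Both wild-type groups were C57/Bl6 mice killed 21 days after surgery, and total RNA from a piece of left ventricle was labelled with Cy3 and hybridised to Agilent arrays of 1 colour. A separate time label reads 0 for the sham arrays, whereas the protocol and the source names give day 21 for every heart. The other 6 arrays, 3 after TAC and 3 after sham surgery at the same day, came from mice overexpressing CnAb1, a calcineurin transgene whose promoter the sources used here do not give. They entered the filter on low signal and the fit, which share 1 estimate of spread, and the test of whether a response differed between genotypes. The labels do not say that each array is a separate animal, nor the sex or age of the mice, and p-values therefore reflect only how far arrays of a group differ.

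Pressure overload makes cardiac muscle cells enlarge, while fibroblasts deposit matrix and vessels and immune cells respond around them. Within the muscle cell the response is known for a return of fetal isoforms, a loss of enzymes that burn fatty acids and a remodelling of the proteins that carry current and calcium. RNA from a piece of ventricle mixes all of these cells, so fewer cells of a type and less RNA per cell cannot be told apart in any result here.

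Levels are given as log2 of the background-corrected signal minus the 75th percentile of all probes on the same array, so 0 is that percentile and 1 unit is a factor of 2. A gene was represented by its brightest probe, and the test covered the 25330 genes or probes whose signal stood well above background on 3 or more of 12 arrays. Of these 16663 carry a gene symbol, and the others are probes without a symbol that count singly and are called genes in shares of all genes. Differences are TAC minus sham with their standard error (SE, n = 3 arrays each). A gene passed when the p-value of limma's moderated test, adjusted by Benjamini-Hochberg over all genes, was under 0.05. In wild-type hearts 5377 genes passed, 21.2% of those tested. Of all genes tested 8.7% were higher and 12.5% were lower with TAC, 3.86% and 2.6% by more than 2-fold, and the arrays of the groups did not overlap for 46.8% (17.5% higher and 29.3% lower). Among those with a symbol 11.6% were higher and 13% lower. Every list member below carries a symbol, while the 8.7% and 12.5% set beside the lists include probes without one. On simulated arrays with the spread of these genes, 200 of 25178 genes were changed and no slide effect was added. There 78% of changes of 2 log2 units and 30% of changes of 1 unit passed. The adjusted threshold depends on the share of changed genes, so these rates do not carry over to the data.

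Several features of the arrays bear on every value below. The 75th percentile itself was 9.88, 9.89 and 9.95 (log2 signal) on the TAC arrays, against 9.24, 8.97 and 9.22 on the sham arrays, while the mean of the added spike-in RNAs was 13.53, 13.82 and 13.94 on the TAC arrays, against 13.57, 13.76 and 13.53 on the sham arrays. Scaling to the spike-ins instead put the median difference of all genes at 0.49, against -0.13 with the percentile, and gave 5592 genes higher and 105 lower. Falls below are therefore relative to the bulk of probes on the array. On the spike-in scale 53 of the 173 named genes that passed no longer did, and 2 changed sign. TAC arrays 1 and 3 were on a slide without wild-type sham arrays, sham array 3 was alone on its slide, and TAC array 2 shared a slide with sham arrays 1 and 2. With slide as a fixed block 417 genes passed, 276 of them in the same direction as without it, and the all-gene median on the shared slide alone was -0.17. The count fell to 2813 without TAC array 3, 2882 without sham array 1 and 3210 without sham array 3. On the shared slide alone, where 1 TAC array is set against 2 sham arrays with no test, 54 of the 173 genes moved by more than the spread between arrays. Their direction there is fixed by the choice of genes whose groups do not overlap.

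**Figure D1:**
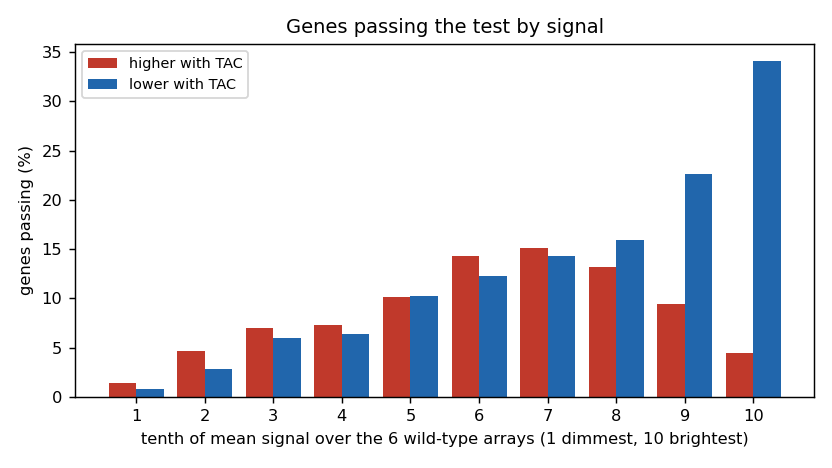
Share of tested genes that passed, higher (red) or lower (blue) with TAC, in 10 equal groups by mean signal over the 6 wild-type arrays. In the brightest group 34.1% were lower and 4.46% higher, with a median difference of -0.28, while in the dimmest group 0.829% were lower and 1.42% higher.

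The falls were concentrated among bright probes, as the plot of passing genes by signal shows. The shares of all genes set beside the lists are not matched for signal, which matters most for lists of bright genes. Under quantile normalization, which forces the arrays to 1 distribution, 2201 genes were higher and 1991 lower. The tissue label was met by its markers: all 20 ventricular muscle genes were tested, with a summed linear signal of 3359 to 3797 times the percentile on TAC arrays and 5474 to 5712 on sham arrays. 13 of these 20 genes fell, 65.0% against 12.5% of all genes, and none rose. The Y-linked Ddx3y was at 1.34, 1.12 and 1.31 on the TAC arrays, against 1.42, 1.51 and 1.61 on the sham arrays. Xist, the X-inactivation RNA, was above background on 2 of the 3 TAC arrays and 1 of the 3 sham arrays, with no value above -4.72.

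**Figure D2:**
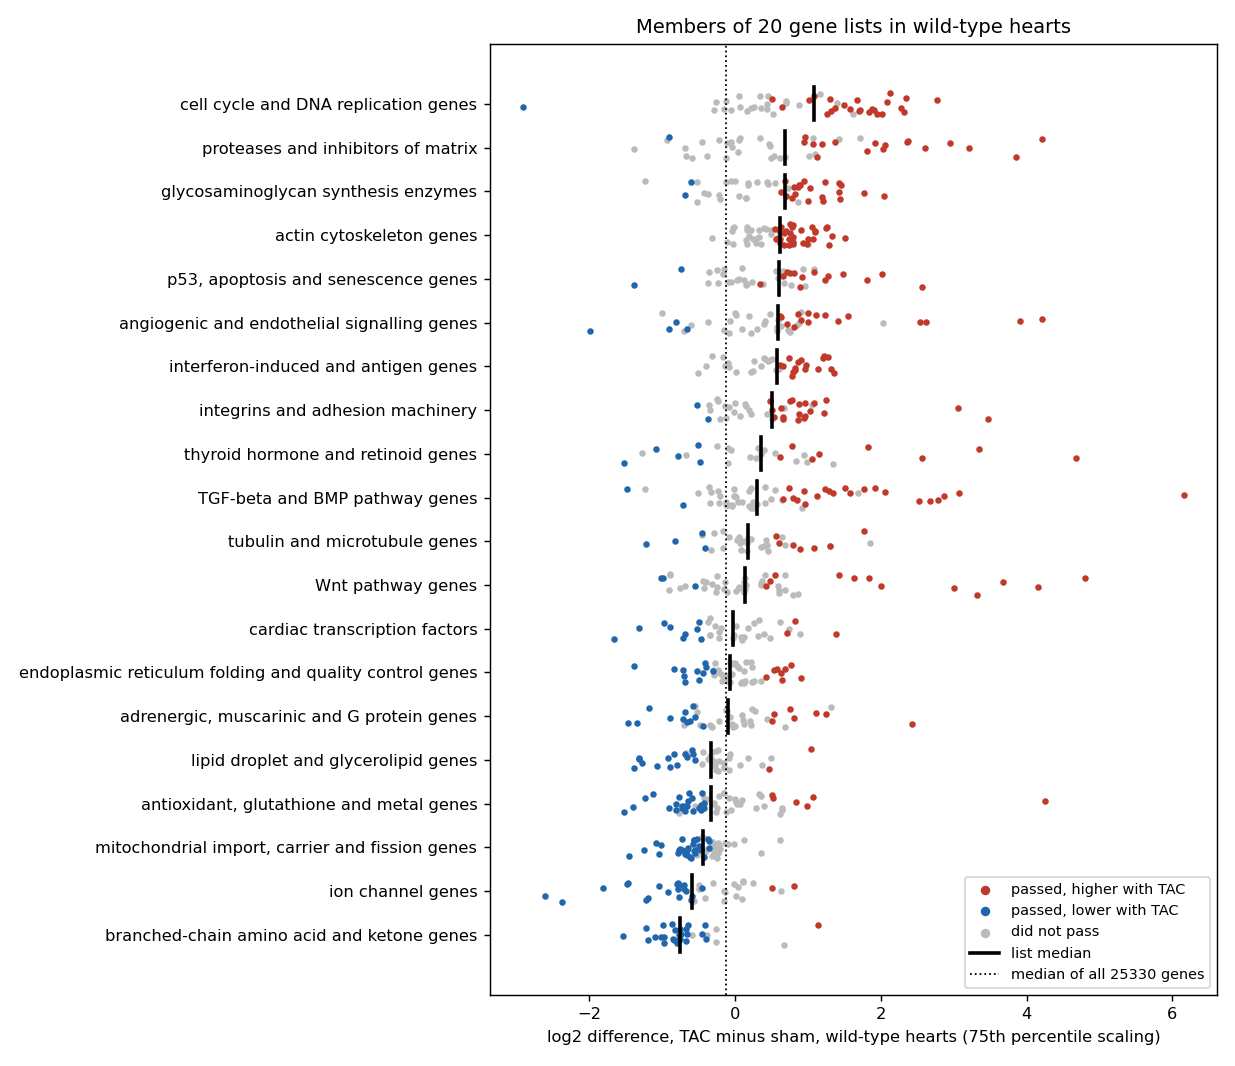
Each dot is a tested member of 1 of 20 gene lists, placed by its log2 difference (TAC minus sham, wild-type hearts). Red dots passed and were higher, blue dots passed and were lower, grey dots did not pass, black bars are list medians and the dotted line is the median of all genes. Actin cytoskeleton and interferon-induced genes have no blue dot, and mitochondrial import and carrier genes have no red one.

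Many genes that set the electrical behaviour of the heart muscle cell fell with TAC. Of 39 ion channel and transporter genes, 21 fell and 2 rose, 53.8% and 5.13% against 12.5% and 8.7% of all genes, with a median of -0.59. Kcnj2, which encodes the inward rectifier that holds the resting potential, was at -3.62, -3.62 and -3.76 on the TAC arrays, against -2.42, -2.34 and -2.58 on the sham arrays. Every TAC array was at least 1.04 units below the lowest sham array, a difference of -1.22 ± 0.12 (adjusted p = 0.000708). Kcnd2, a pore subunit of the transient outward potassium current, was at -0.46, 0.17 and -0.58 on the TAC arrays, against 0.94, 1.34 and 1.28 on the sham arrays and fell by 1.48 ± 0.34 (adjusted p = 0.0144). Its relative Kcnd3 was at 0.47, 0.23 and 0.72 on the TAC arrays, against 0.49, 0.22 and 0.59 on the sham arrays, with groups that overlap and a difference of 0.04 ± 0.15. The atrially enriched Kcnj3 differed by -1.47 ± 0.22, the modifier subunit gene Kcnv2 by -2.37 ± 0.35 and the background potassium channel gene Kcnk3 by -0.91 ± 0.14, and these 3 passed. Scn4b, a beta subunit of the sodium channel, varied more, with 0.76, 1.38 and -1.39 on the TAC arrays, against 2.91, 2.64 and 3.01 on the sham arrays. It was low on all TAC arrays and lowest on TAC array 3, and passed with a difference of -2.61 ± 0.78 (adjusted p = 0.0401). Cacna1c, the pore of the L-type calcium channel, differed by -0.57 ± 0.19 and did not pass (adjusted p = 0.0567). With slide as a fixed block the list median was -0.63 and on the shared slide -0.55. On the spike-in scale 4 members passed as higher and 3 as lower.

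Genes of the calcium store moved in both directions. Of 35 genes of the T-tubule and calcium release machinery, 7 fell and 5 rose, set beside 12.5% and 8.7% of all genes. The list median of -0.201 was close to the -0.13 of all genes. Hrc, a calcium-binding protein inside the sarcoplasmic reticulum, was at 6.54, 6.54 and 6.14 on the TAC arrays, against 7.60, 7.70 and 7.62 on the sham arrays, and the groups were 1.06 units apart at their closest (difference -1.23 ± 0.17, adjusted p = 0.00199). Pln, which restrains the calcium pump, fell by 0.78 ± 0.17, and Jph2, which ties T-tubules to the reticulum, fell by 0.72 ± 0.15. Fkbp1b, a stabiliser of the ryanodine receptor, rose by 1.26 ± 0.31, Bin1, which shapes T-tubules, by 0.88 ± 0.13 and the inositol trisphosphate receptor gene Itpr1 by 0.83 ± 0.17. Ryr2, the release channel itself, differed by -0.39 ± 0.13 and did not pass (adjusted p = 0.0657). At the junctions between muscle cells the desmosomal cadherin gene Dsg2 was at -1.12, -1.24 and -0.88 on the TAC arrays, against 0.07, -0.05 and 0.24 on the sham arrays and fell by 1.17 ± 0.14, whereas the connexin gene Gja1 was at 0.84, 0.84 and 1.16 on the TAC arrays, against 0.74, 0.79 and 0.96 on the sham arrays with overlapping groups.

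Contractile genes were mixed, and many genes of the actin cytoskeleton outside the sarcomere rose. Of 41 sarcomere and Z-disc genes, 12 fell and 6 rose, 29.3% and 14.6% against 12.5% and 8.7% of all genes. Tnni3, cardiac troponin I, fell by 0.93 ± 0.12, while the M-band gene Myom3 and the Z-disc genes Pdlim3 and Pdlim7 rose by 1.28 ± 0.21, 1.24 ± 0.37 and 1.24 ± 0.22. Of 2 other probes for Pdlim7, 1 gave 0.88 and passed and 1 gave -0.45 and did not pass. In contrast 32 of 55 actin cytoskeleton genes rose and 0 fell, 58.2% against the 8.7% of all genes that rose. Myh10, a nonmuscle myosin heavy chain, was at -0.06, -0.24 and -0.07 on the TAC arrays, against -1.27, -1.46 and -1.42 on the sham arrays. The TAC arrays lay within 0.18 units of each other and all were at least 1.04 units above sham (difference 1.26 ± 0.11, adjusted p = 0.000543). Its relative Myh9 rose by 0.80 ± 0.13, the actin-capping gene Capg by 1.29 ± 0.19, the leukocyte bundling gene Lcp1 by 1.33 ± 0.21 and the small GTPase gene Rhoc by 1.07 ± 0.16. Cytoplasmic actin Actb, often used as a loading control, was at 6.51, 6.45 and 6.90 on the TAC arrays, against 5.84, 6.17 and 5.78 on the sham arrays and rose by 0.69 ± 0.17 (adjusted p = 0.0176). The list median of 0.62 was 0.44 with the slide block and 0.43 on the shared slide, and 1 member still passed with the block.

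Several pairs of related genes, chosen after their values were seen from members of the lists, changed in opposite directions. Rpl3 encodes a protein of every ribosome, and Rpl3l is its relative in striated muscle. Rpl3 was at 5.43, 5.18 and 5.49 on the TAC arrays, against 4.58, 4.70 and 4.41 on the sham arrays, and rose by 0.81 ± 0.21 (adjusted p = 0.023). Rpl3l was at 3.53, 3.82 and 2.67 on the TAC arrays, against 4.98, 4.97 and 5.15 on the sham arrays, and fell by 1.69 ± 0.41 (adjusted p = 0.0179). The TAC and sham arrays did not overlap for either gene. Among 74 cytosolic ribosomal protein genes, Rpl3 was the only one that rose, and 15 fell, 20.3% against 12.5% of all genes. These genes are bright, with a summed signal of 5366 to 5931 on TAC arrays and 6749 to 7476 on sham arrays. In the brightest of 10 groups by signal 34.1% of genes fell, so 20.3% is not shown to be an excess. The elongation factor gene Eef1a1 rose by 0.82 ± 0.22, and its muscle and nerve relative Eef1a2 fell by 0.66 ± 0.14. Of the tubulins, Tuba1a was at 4.07, 3.69 and 4.56 on the TAC arrays, against 3.27, 3.66 and 3.00 on the sham arrays, where the groups were 0.03 units apart at their closest, and rose by 0.80 ± 0.25 (adjusted p = 0.0446). Tuba4a was at 5.88, 5.97 and 5.41 on the TAC arrays, against 6.94, 7.03 and 6.97 on the sham arrays and fell by 1.22 ± 0.20, and Tuba8 fell by 0.83 ± 0.25. Tubb2a and the microtubule-associated gene Map1b rose by 0.90 ± 0.18 and 1.77 ± 0.49. Pfkp, the platelet form of the glycolytic enzyme phosphofructokinase, rose by 1.06 ± 0.27 while the muscle form Pfkm fell by 0.68 ± 0.10. Whether a probe also binds the transcript of its relative was not tested.

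**Figure D3:**
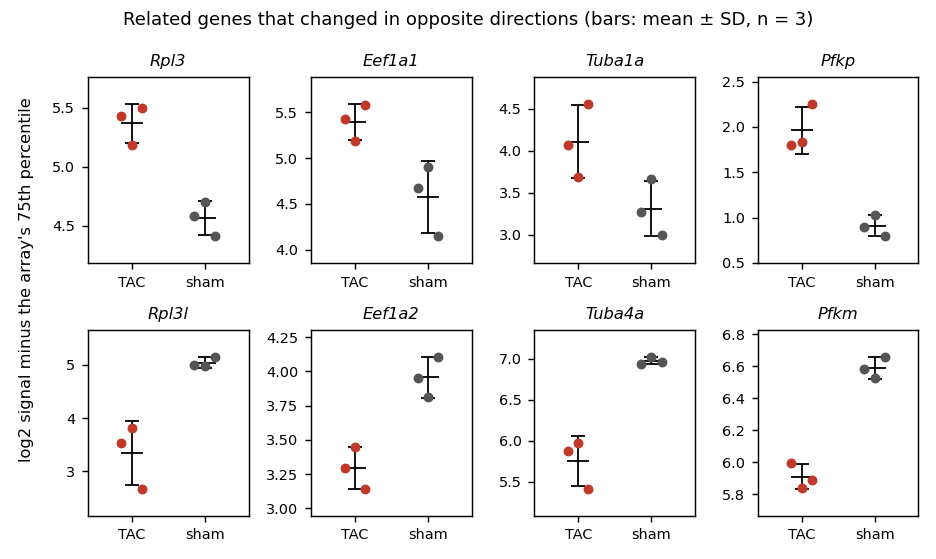
Log2 signal minus the 75th percentile on each wild-type array, TAC left and sham right, for 4 pairs of related genes. The upper row holds the members that rose (Rpl3 by 0.81), and the lower row those that fell (Rpl3l by 1.69).

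Among transcription factors of the muscle cell programme the falls exceeded the share of all genes, and the rises were near it. Adrenergic, muscarinic and G protein genes changed in both directions. Of 35 cardiac transcription factor genes, 9 fell and 3 rose, 25.7% and 8.57% against 12.5% and 8.7% of all genes. Hopx, a homeodomain cofactor, was at 4.03, 3.90 and 3.11 on the TAC arrays, against 5.20, 5.35 and 5.46 on the sham arrays. It was lowest on TAC array 3 and the groups did not overlap (difference -1.65 ± 0.25, adjusted p = 0.00287). Ppara, the fatty acid sensor that drives oxidation genes, fell by 1.32 ± 0.17, Mef2a by 0.98 ± 0.19 and the estrogen-related receptor gene Esrra by 0.71 ± 0.14. Klf5 rose by 1.39 ± 0.28, and Gata4 was at 2.09, 1.75 and 2.28 on the TAC arrays, against 1.91, 1.73 and 2.19 on the sham arrays with overlapping groups. Of 42 adrenergic, muscarinic and G protein genes, 11 fell and 7 rose (26.2% and 16.7%). The alpha-1 adrenergic receptor gene Adra1a was at -4.10, -3.87 and -4.07 on the TAC arrays, against -2.57, -2.36 and -2.70 on the sham arrays, with 1.18 units between the groups (difference -1.47 ± 0.24, adjusted p = 0.00398). Adra1b fell by 1.35 ± 0.16, and its other probe gave -0.60 and did not pass. The beta-1 receptor gene Adrb1 differed by -0.58 ± 0.14 and passed, but stood at 0.04 on the spike-in scale.

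Downstream of these receptors the changes ran both ways. Rgs2, which switches off signalling by Gq, fell by 1.18 ± 0.26, and the receptor kinase gene Grk5 rose by 1.10 ± 0.23. Adcy7, an adenylyl cyclase found in many cells outside the muscle cell, was at 1.36, 0.87 and 1.84 on the TAC arrays, against -1.05, -1.14 and -1.02 on the sham arrays. All sham arrays lay within 0.13 units of each other and the TAC arrays were at least 1.89 units above them (difference 2.43 ± 0.20, adjusted p = 0.000437). Both subunits of the nitric oxide receptor guanylyl cyclase rose, Gucy1a1 by 1.39 ± 0.29 and Gucy1b1 by 1.26 ± 0.25. Adcy7, Adra1b, Ppara and Kcnj2 also passed with slide as a fixed block, whereas the difference of Hopx did not.

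Genes that handle thyroid hormone and retinoids changed in both directions, with 1 of the largest rises of the whole comparison. Dio2 encodes the deiodinase that makes the active hormone inside cells, and was at 1.32, 1.10 and 2.30 on the TAC arrays, against -2.89, -2.77 and -3.64 on the sham arrays. Sham arrays were at least 3.87 units below every TAC array, a difference of 4.67 ± 0.33 or 25.5-fold (adjusted p = 0.000384). Dio1, the deiodinase known from liver and kidney, fell by 1.52 ± 0.33, but its other probes gave 0.01 and -0.47 and did not pass. The hormone receptor gene Thrb passed with a difference of -0.48 ± 0.15, which was 0.14 on the spike-in scale, and the retinoid X receptor gene Rxrg fell by 1.08 ± 0.20. Rbp4, the retinol carrier of plasma, was at -1.42, -3.54 and -0.35 on the TAC arrays, against -6.08, -4.59 and -4.67 on the sham arrays. It was above background on all 3 TAC arrays and 1 sham array, TAC array 2 was the lowest of the TAC arrays, and the difference was 3.34 ± 0.71 (adjusted p = 0.0105). In all 8 of 29 genes of this list rose and 5 fell, 27.6% and 17.2% against 8.7% and 12.5% of all genes. With the slide block 4 members passed as higher, Dio2 among them.

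**Figure D4:**
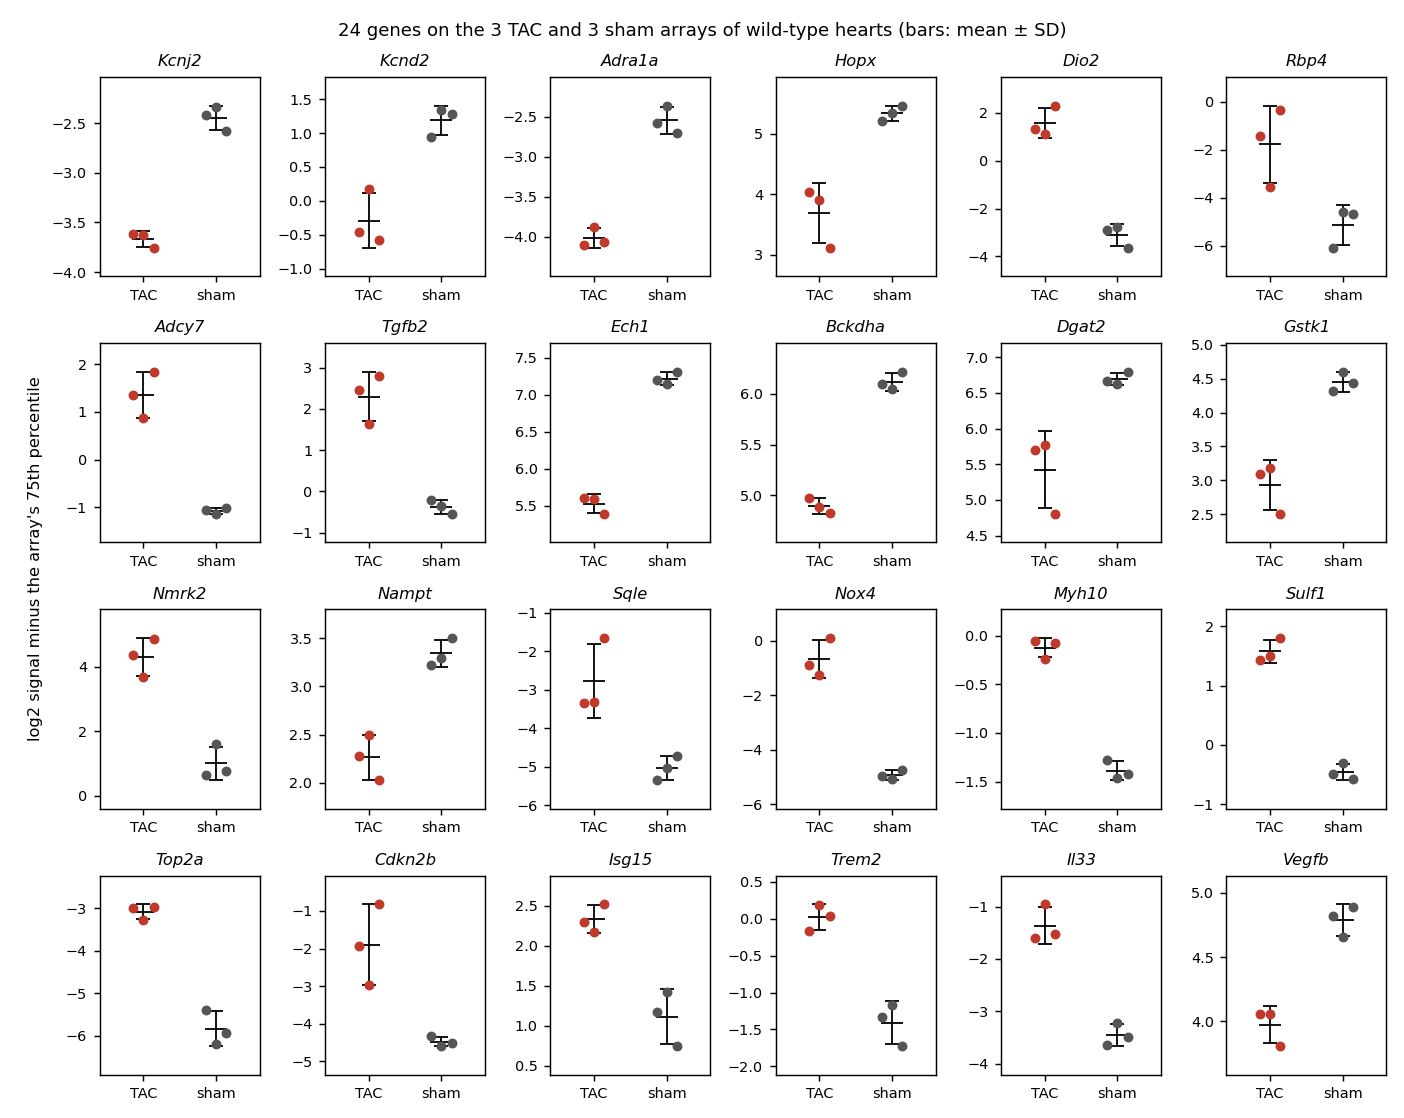
Log2 signal minus the 75th percentile for 24 genes on each wild-type array, TAC (red) left and sham (grey) right, with mean and SD. For every gene shown the TAC and sham arrays do not overlap, from Dio2 (4.67) at the largest rise to Ech1 (-1.69) at the largest fall of those drawn.

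Beyond the respiratory chain, most measured enzymes of fatty acid oxidation fell. Ech1, an auxiliary enzyme for unsaturated fatty acids, was at 5.60, 5.60 and 5.39 on the TAC arrays, against 7.20, 7.15 and 7.31 on the sham arrays, with TAC arrays at least 1.55 units below every sham array, a difference of -1.69 ± 0.13 (adjusted p = 0.000384). Acaa2, Eci1 and Hadh, which act in the same spiral, fell by 1.32 ± 0.14, 1.36 ± 0.14 and 1.18 ± 0.14, and the thioesterase gene Acot1 fell by 2.77 ± 0.39. In the list of 40 genes of fatty acid uptake and oxidation, which does not hold Ech1, 29 fell and 2 rose. These are 72.5% and 5.0% against 12.5% and 8.7% of all genes. The members that rose were Acsl5 (0.91 ± 0.12) and Cpt1a (0.41 ± 0.12), which activate fatty acids and commit them to the mitochondrion, and the other probe for Cpt1a gave -0.05. In the degradation of branched-chain amino acids most genes fell too, with 25 of 31 genes down, 80.6% against 12.5% of all genes. Bckdha, a subunit of the committing dehydrogenase, was at 4.98, 4.88 and 4.82 on the TAC arrays, against 6.09, 6.04 and 6.21 on the sham arrays (difference -1.22 ± 0.14, adjusted p = 0.00122). The highest TAC array for Bckdha was 1.07 units below the lowest sham array. Bckdhb, Bcat2 and Aldh6a1 fell by 1.02 ± 0.12, 0.98 ± 0.21 and 1.00 ± 0.13. The member that rose was Slc16a3, an exporter of lactate, at 0.10, -0.32 and 1.00 on the TAC arrays, against -0.88, -0.61 and -1.14 on the sham arrays (difference 1.14 ± 0.29). On the spike-in scale the median was -0.21 for fatty acid genes and -0.14 for branched-chain genes, and 1 and 0 members passed as lower. With the slide block the medians were -0.75 and -0.72, and 1 and 0 members passed as lower.

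Many genes of mitochondrial carriers and cofactors fell, 51.8% and 46.9% of the lists against 12.5% of all genes. None of 56 mitochondrial import, carrier and fission genes rose and 29 fell, among them the acylcarnitine carrier gene Slc25a20 (-1.04 ± 0.15). Likewise 23 of 49 genes for respiratory assembly, coenzyme Q and iron-sulfur clusters fell and none rose, including Coq9 (-0.92 ± 0.17). Pink1, a kinase that marks damaged mitochondria, was at 4.80, 4.72 and 4.84 on the TAC arrays, against 5.96, 5.97 and 5.92 on the sham arrays and fell by 1.17 ± 0.12 (adjusted p = 0.000811). The arrays of Pink1 lay within 0.12 units of each other after TAC and 0.05 after sham surgery. On the shared slide the import list had a median of -0.33, and the assembly list -0.23. No member of either list passed as lower on the spike-in scale, where the medians were 0.19 and 0.16.

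In sugar and lipid handling the falls exceeded the share of all genes, and the rises did not clearly do so. Of 54 glycolysis, glycogen and pentose genes 16 fell and 5 rose, 29.6% and 9.26% against 12.5% and 8.7% of all genes. Pfkfb1, which sets the level of the activator of phosphofructokinase, fell by 2.80 ± 0.51, and the insulin-responsive glucose transporter gene Slc2a4 fell by 1.02 ± 0.14. The sugar phosphate mutase gene Pgm2 rose by 1.12 ± 0.28. Among 42 lipid droplet and glycerolipid genes, 14 fell and 2 rose, 33.3% and 4.76% against 12.5% and 8.7% of all genes. Dgat2, which makes triglyceride, was at 5.70, 5.77 and 4.80 on the TAC arrays, against 6.66, 6.62 and 6.80 on the sham arrays (difference -1.27 ± 0.23), and TAC array 3 was the lowest. Fitm1, needed to bud droplets, and G0s2, an inhibitor of lipolysis, fell by 1.39 ± 0.21 and 1.32 ± 0.23, while the acyltransferase gene Agpat4 rose by 1.05 ± 0.20. Within cholesterol synthesis the neighbouring enzymes moved apart, since Sqle rose by 2.26 ± 0.40 and Fdft1, the step before it, fell by 1.36 ± 0.20. The other probe for Fdft1 gave 0.24.

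Genes for nicotinamide adenine dinucleotide (NAD) synthesis and for energy buffering changed in both directions. Nmrk2, a kinase that makes NAD from nicotinamide riboside, was at 4.35, 3.69 and 4.87 on the TAC arrays, against 0.64, 1.59 and 0.76 on the sham arrays (difference 3.30 ± 0.88, 9.88-fold, adjusted p = 0.0256). All TAC arrays were at least 2.10 units above all sham arrays. Nampt, the main salvage enzyme, was at 2.28, 2.49 and 2.03 on the TAC arrays, against 3.22, 3.30 and 3.50 on the sham arrays and fell by 1.08 ± 0.17 (adjusted p = 0.00307). Muscle creatine kinase Ckm fell by 1.05 ± 0.17 and adenosine deaminase Ada rose by 1.70 ± 0.23. Of 56 antioxidant, glutathione and metal genes 23 fell and 6 rose, with 41.1% lower against 12.5% of all genes. The glutathione transferase genes Gstk1 and Gstm7 fell by 1.53 ± 0.21 and 1.24 ± 0.15. The secreted enzymes Gpx3 and Sod3 rose by 1.07 ± 0.23 and 0.99 ± 0.15. Nox4, an oxidase that makes hydrogen peroxide, was at -0.89, -1.25 and 0.10 on the TAC arrays, against -4.98, -5.08 and -4.73 on the sham arrays on its brightest probe, a difference of 4.25 ± 0.40. Its other probe gave -0.29 and did not pass, so the direction for Nox4 rests on 1 probe.

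Genes of protein folding and RNA processing changed in both directions. Of 52 genes for folding in the endoplasmic reticulum, 11 fell and 8 rose, 21.2% and 15.4% against 12.5% and 8.7% of all genes. Hspa5, the chaperone also called BiP, was at 4.85, 4.90 and 4.90 on the TAC arrays, against 5.70, 5.86 and 5.61 on the sham arrays and fell by 0.84 ± 0.12 (adjusted p = 0.00245). The groups did not overlap, and the TAC arrays lay within 0.05 units of each other. Herpud1, a target of the unfolded protein response, and the lectin chaperone gene Canx fell by 1.38 ± 0.32 and 0.69 ± 0.11. The oligosaccharyltransferase subunit gene Stt3a rose by 0.90 ± 0.17, and the retrieval receptor gene Kdelr3 by 1.78 ± 0.21. The splicing factor gene Rbfox1, prominent in muscle and brain, was at 1.58, 1.84 and 1.04 on the TAC arrays, against 3.24, 3.42 and 3.24 on the sham arrays (difference -1.81 ± 0.32), with no overlap. Mbnl3 rose by 1.01 ± 0.30, but its other probe gave -0.04.

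The transforming growth factor family drives fibroblasts to make matrix. Of 57 tested pathway genes, 21 rose and 2 fell, 36.8% up against 8.7% of all genes. The ligand gene Tgfb2 was at 2.46, 1.63 and 2.80 on the TAC arrays, against -0.21, -0.36 and -0.55 on the sham arrays (difference 2.67 ± 0.27, 6.37-fold, adjusted p = 0.000708). Tgfb1 was at -0.24, -0.39 and -0.18 on the TAC arrays, against -0.23, -0.45 and -0.14 on the sham arrays, so its arrays overlapped and the difference was 0.01 ± 0.17 (adjusted p = 0.983). The follistatin-like gene Fstl1, the latent binding protein gene Ltbp4 and the procollagen protease gene Bmp1 rose by 2.86 ± 0.27, 1.24 ± 0.13 and 1.35 ± 0.12, although the dimmer probes for Bmp1 gave 0.44 and -0.20. Nog and Bmp7, an antagonist and a ligand of the bone morphogenetic branch, were the members that fell, Nog by 1.48 ± 0.23 and Bmp7 by 0.72 ± 0.21. With the slide block 6 members passed as higher and 1 as lower.

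Genes of other growth factor families changed at selected members, set against 8.7% of all genes higher and 12.5% lower. Of 50 Wnt genes tested, 12 rose and 3 fell, with the secreted antagonists Sfrp2 and Frzb and the receptors Fzd1 and Fzd2 among those that rose. Sfrp2 was at 1.24, -0.22 and 3.12 on the TAC arrays, against -2.90, -2.66 and -2.76 on the sham arrays, with TAC array 2 lowest of its group but above every sham array (difference 4.15 ± 0.75). Frzb rose by 3.32 ± 0.42, Fzd1 by 1.63 ± 0.22 and Fzd2 by 1.83 ± 0.33, and the ligand gene Wnt2b fell by 1.02 ± 0.25. Of 30 genes of the epidermal and platelet-derived growth factor and neurotrophin families 10 rose and 2 fell. Both receptors for platelet-derived growth factor rose, Pdgfra by 1.16 ± 0.22 and Pdgfrb by 1.19 ± 0.18. Egfr rose by 1.40 ± 0.21 on its brightest probe, and its other probes gave 1.35, which passed, and 0.03, which did not. Of 38 insulin-like and fibroblast growth factor genes 5 rose (13.2%) and 2 fell (5.26%). The rises were near the 11.6% of genes with a symbol, so the list as a whole showed no clear response. Igf1 was at -0.44, 0.22 and -0.15 on the TAC arrays, against -1.79, -1.59 and -2.02 on the sham arrays (difference 1.68 ± 0.18). Other probes for Igf1 gave 2.46 and 1.75, which passed, and 0.16, which did not. Its binding protein genes Igfbp3 and Igfbp6 rose by 1.83 ± 0.45 and 1.93 ± 0.24.

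Of 47 angiogenic and endothelial signalling genes 16 rose and 4 fell, 34.0% and 8.51% against 8.7% and 12.5% of all genes. Vegfb, a ligand of the muscle cell, was at 4.06, 4.06 and 3.80 on the TAC arrays, against 4.82, 4.65 and 4.89 on the sham arrays and fell by 0.82 ± 0.13 (adjusted p = 0.00327), and the receptor gene Kdr fell by 0.66 ± 0.18 while its other probe gave 0.33. Vegfa was at 3.09, 2.07 and 3.32 on the TAC arrays, against 3.70, 3.38 and 3.47 on the sham arrays and did not pass (adjusted p = 0.133). The lymphatic factor gene Vegfc rose by 1.54 ± 0.24, the guidance receptor gene Robo1 by 2.54 ± 0.20 and the matricellular gene Thbs1 by 3.92 ± 0.59. Among markers of the endothelial cell itself Emcn rose by 0.99 ± 0.13 and Cdh5 by 0.84 ± 0.15, whereas Pecam1 was at 0.03, 0.40 and 0.01 on the TAC arrays, against 0.44, 0.57 and -0.06 on the sham arrays with overlapping groups. In all 9 of 28 endothelial genes rose and 2 fell (32.1% and 7.14%). Their summed signal was 291 to 359 on TAC arrays and 261 to 351 on sham arrays. The lymphatic marker Pdpn, also made by activated fibroblasts, rose by 1.90 ± 0.23. Of 17 smooth muscle and pericyte genes 6 rose and 3 fell, 35.3% and 17.6% against 8.7% and 12.5% of all genes, with Cnn1 up by 1.85 ± 0.42 and Tagln up by 1.03 ± 0.28, while Acta2 was at 3.43, 2.95 and 4.40 on the TAC arrays, against 3.58, 3.63 and 3.72 on the sham arrays.

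Many enzymes that build and trim the matrix rose. Among 45 enzymes of glycosaminoglycan synthesis, 21 rose and 2 fell (46.7% and 4.44%). The heparan sulfatase gene Sulf1 was at 1.43, 1.50 and 1.81 on the TAC arrays, against -0.49, -0.31 and -0.58 on the sham arrays (difference 2.04 ± 0.22, adjusted p = 0.0009), and the groups were 1.74 units apart at their closest. The chondroitin polymerase gene Chpf2 rose by 1.43 ± 0.22, with 0.16 on its other probe, and the dermatan epimerase gene Dse rose by 1.21 ± 0.13. Hyaluronan synthase Has2 was at -3.30, -3.65 and -3.67 on the TAC arrays, against -4.60, -3.93 and -4.67 on the sham arrays and did not pass (adjusted p = 0.0838). In collagen maturation the procollagen peptidase gene Adamts2, its enhancer Pcolce and the uptake receptor gene Mrc2 rose by 2.78 ± 0.24, 1.74 ± 0.19 and 2.14 ± 0.15. The dimmer probe for Mrc2 gave 0.60 and did not pass. Pcolce was among the brightest genes, at 5.45, 5.46 and 5.85 on the TAC arrays, against 3.72, 4.08 and 3.73 on the sham arrays. The collagen-binding integrin gene Itga11 rose by 3.06 ± 0.44 and the integrin-like Itgbl1 by 3.47 ± 0.39. Of 41 adhesion genes 20 rose and 2 fell, and of 45 matrix proteases and inhibitors 17 rose and 1 fell, so 48.8% and 37.8% rose against 8.7% of all genes. Timp1, an inhibitor of matrix proteases, was at 2.53, 2.74 and 3.06 on the TAC arrays, against -1.42, -0.96 and -1.94 on the sham arrays (difference 4.21 ± 0.63, 18.5-fold), with every TAC array at least 3.49 units above sham. Serpinf1, Mfap4 and Pamr1 rose by 2.96 ± 0.23, 4.34 ± 0.41 and 3.82 ± 0.33. Adamts8 rose by 3.85 ± 0.23 on 1 probe and differed by -0.70, without passing, on the other.

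Most fibroblast markers rose, but not evenly. Of 23 such genes 13 rose and 1 fell, 56.5% and 4.35% against 8.7% and 12.5% of all genes, with a median of 1.06. Their summed signal was 365 to 401 on TAC arrays and 170 to 261 on sham arrays. Pdgfra, described above, was among those that rose (1.16 ± 0.22). Dpt was at 1.05, 1.37 and 1.27 on the TAC arrays, against 0.89, 1.28 and 0.19 on the sham arrays without passing. Scara5, a ferritin receptor of adventitial fibroblasts, was at -2.12, -1.29 and -3.11 on the TAC arrays, against -0.78, -0.61 and -0.88 on the sham arrays. It fell by 1.42 ± 0.43 (adjusted p = 0.0436).

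Many genes of cell division rose. Of 47 cell cycle and replication genes above background, 24 rose, 51.1% against 8.7% of all genes, and 1 fell. Mki67, a marker of cycling cells, was at 0.32, -0.52 and 0.34 on the TAC arrays, against -2.20, -2.14 and -2.56 on the sham arrays, and the groups were 1.62 units apart at their closest (difference 2.35 ± 0.49, adjusted p = 0.00953). Top2a, which untangles replicated DNA, was above background on all TAC arrays and on 1 sham array and rose by 2.77 ± 0.72. Bub1b, Birc5 and Plk1, which act in mitosis, rose by 2.31 ± 0.47, 2.28 ± 0.48 and 2.09 ± 0.46. The replication helicase gene Mcm7 differed by 0.35 ± 0.14 and did not pass. Cenpf, a kinetochore gene, went against its list and was not well above background on any TAC array. Cenpf stood well above background on the wild-type sham arrays alone and passed the filter only through them, so its p-value is no support. It was at least 5.72-fold lower with TAC, and a normexp background correction turned its difference to 0.24. The list median of 1.08 was 0.62 with the slide block, with no member passing at the adjusted threshold, and 0.55 on the shared slide.

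A brake on the cycle rose in the same hearts. Cdkn2b, an inhibitor of the kinases that open the cycle, was at -1.92, -2.96 and -0.82 on the TAC arrays, against -4.33, -4.58 and -4.50 on the sham arrays, with TAC array 2 the lowest of its group (difference 2.57 ± 0.42, adjusted p = 0.00377). Its dimmer probe gave 0.60 and did not pass. The survival gene Bcl2 rose by 1.23 ± 0.22, and its pro-death antagonist Bcl2l11 fell by 1.38 ± 0.13 (adjusted p = 0.00065), a direction that turned to 0.17 under normexp correction. In the list of 42 p53, apoptosis and senescence genes 14 rose and 2 fell, 33.3% and 4.76% against 8.7% and 12.5% of all genes.

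Immune genes rose in part, and the interferon-induced genes that passed were all higher. Of 37 interferon-induced and antigen genes 17 rose, none fell and 20 did not pass, with a median of 0.58 and 45.9% up against 8.7% of all genes. Oasl2, an antiviral protein, was at -0.03, 0.05 and -0.02 on the TAC arrays, against -1.46, -1.29 and -1.32 on the sham arrays (difference 1.35 ± 0.15, adjusted p = 0.000922). Isg15, a ubiquitin-like modifier, was at 2.30, 2.17 and 2.52 on the TAC arrays, against 1.18, 1.42 and 0.74 on the sham arrays (difference 1.22 ± 0.22, adjusted p = 0.00564). Ifit1, which binds foreign RNA, and its relative Ifit3 rose by 0.97 ± 0.29 and 1.27 ± 0.19, and Stat2, which relays the interferon signal, by 0.83 ± 0.12. For each of these 5 genes every TAC array was above every sham array. The list median was 0.51 with the slide block and 0.58 on the shared slide, and no member passed with the block, where few genes of any kind passed.

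These genes are known to be switched on through the interferon-stimulated response element, searched here as GAAA, any 2 bases and GAAA on both strands of the RefSeq promoter windows of build GRCm38.p6, 250 bases before to 50 after the start. Of the 28 tested members with a window 14 held it, 50%, against 3.85% of 13224 tested genes with a window. The windows of the 3 genes with the smallest p-values among those that rose and hold it are shown 5′ to 3′ on the gene's strand, with the matches in capitals. Matches in Isg15 overlap each other. They are at chr10:128270248-128270547 (plus strand) for Stat2, chr19:34583279-34583578 (plus) for Ifit3 and chr4:156200769-156201068 (minus) for Isg15.
Stat2: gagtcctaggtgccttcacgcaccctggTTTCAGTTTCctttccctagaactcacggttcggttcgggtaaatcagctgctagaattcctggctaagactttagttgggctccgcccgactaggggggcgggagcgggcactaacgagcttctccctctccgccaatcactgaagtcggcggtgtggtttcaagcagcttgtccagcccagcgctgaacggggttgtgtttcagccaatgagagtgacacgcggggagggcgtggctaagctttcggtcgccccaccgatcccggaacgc
Ifit3: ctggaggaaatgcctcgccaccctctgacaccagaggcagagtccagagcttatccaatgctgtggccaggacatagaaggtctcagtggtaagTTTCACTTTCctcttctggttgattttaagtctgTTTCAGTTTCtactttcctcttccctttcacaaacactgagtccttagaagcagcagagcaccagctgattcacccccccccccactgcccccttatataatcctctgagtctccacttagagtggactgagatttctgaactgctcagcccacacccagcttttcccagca
Isg15: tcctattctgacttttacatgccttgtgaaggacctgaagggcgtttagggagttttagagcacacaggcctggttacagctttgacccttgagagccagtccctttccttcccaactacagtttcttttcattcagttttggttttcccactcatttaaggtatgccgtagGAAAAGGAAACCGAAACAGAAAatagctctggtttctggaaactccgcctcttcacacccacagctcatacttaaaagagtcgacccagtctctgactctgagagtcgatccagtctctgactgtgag

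A similar search was made for the cell cycle list with the cell cycle homology region, TTTGAA, which is known to bind the complexes that switch mitotic genes off and on. It was in a window of 18 of 40 members, 45%, against 15.8% of all genes with a window. The window of Mki67, shown because its values are described above, holds 2 matches, in capitals, at chr7:135716330-135716629 (minus strand).
Mki67: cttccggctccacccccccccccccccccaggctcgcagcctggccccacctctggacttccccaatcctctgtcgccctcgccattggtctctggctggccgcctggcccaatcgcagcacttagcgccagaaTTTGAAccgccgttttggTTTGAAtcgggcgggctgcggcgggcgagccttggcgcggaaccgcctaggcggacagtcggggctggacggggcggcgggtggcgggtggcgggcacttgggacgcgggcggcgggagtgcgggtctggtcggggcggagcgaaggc
For the fatty acid list the estrogen-related receptor element TNAAGGTCA was in 1 of 34 windows, against 1.08% of all genes. These matches describe letters in a window and do not show that a factor binds there.

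Macrophage, chemokine and cytokine genes changed at selected members. The pan-macrophage receptor Csf1r was at 3.36, 3.83 and 3.43 on the TAC arrays, against 3.14, 3.38 and 3.13 on the sham arrays and the complement gene C1qa at 1.79, 2.33 and 1.65 on the TAC arrays, against 1.41, 1.91 and 1.42 on the sham arrays, and the groups overlapped for both genes. Trem2, a lipid receptor of tissue macrophages, was at -0.16, 0.19 and 0.03 on the TAC arrays, against -1.33, -1.17 and -1.73 on the sham arrays (difference 1.43 ± 0.16, adjusted p = 0.000936), with TAC arrays at least 1.01 units above sham. Lgals3 varied widely, at 2.09, 1.12 and 4.31 on the TAC arrays, against -0.15, 0.60 and -0.75 on the sham arrays, and rose by 2.60 ± 0.69, and Spp1 rose by 2.33 ± 0.62. In 28 macrophage and monocyte genes 9 rose and 1 fell, 32.1% and 3.57% against 8.7% and 12.5% of all genes. Their summed signal was 68.6 to 79.8 on TAC arrays and 56.0 to 60.9 on sham arrays. Ccl17 and Cxcl10, which draw T cells, rose by 2.03 ± 0.14 and 2.59 ± 0.49. Ccl11, which draws eosinophils, was at -5.58, -5.13 and -4.46 on the TAC arrays, against -2.84, -2.97 and -3.22 on the sham arrays and fell by 2.05 ± 0.43 (adjusted p = 0.0103). Ccl2, the main monocyte chemokine, was at -1.01, 1.53 and -0.60 on the TAC arrays, against -1.13, -0.52 and -0.79 on the sham arrays, high on TAC array 2 alone, and did not pass (adjusted p = 0.486). The alarmin gene Il33 rose by 2.09 ± 0.41, and the receptor gene Lifr fell by 1.13 ± 0.14. Dimmer probes for Lifr gave -0.77, which passed, and -0.41, which did not. Il6 was well above background on the 3 wild-type TAC arrays and on no other array of the series. It passed the filter on low signal only through those arrays, so its p-value is no support. Its mean was at least 10.2-fold higher with TAC.

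Of 20 complement genes 6 rose and 1 fell, 30.0% and 5.0% against 8.7% and 12.5% of all genes. C1ra rose by 1.10 ± 0.22 and Serping1 by 0.99 ± 0.17. None of 20 T, NK and B cell genes rose, and Cd4 was the 1 that fell (-0.98 ± 0.22), with -0.14 on its other probe. No member of the red blood cell and platelet list or the neutrophil and mast cell list passed.

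Further genes were at background on every array of 1 group. They were chosen for a bright group set against a group at background, so no p-value is given as support. Prrx2, a mesenchymal homeobox gene, was at least 17.5-fold higher with TAC, Chil1, a secreted chitinase-like protein, at least 14.8-fold and the orphan receptor gene Gpr176 at least 14.8-fold. Mybph was at least 10.9-fold higher, the epidermal growth factor ligand gene Ereg at least 9.83-fold and the aggrecanase gene Adamts4 at least 7.97-fold. Ereg was above background on the 3 wild-type TAC arrays and 1 transgenic TAC array, so it passed the filter only through its bright group. Gata3 was at least 4.86-fold lower with TAC, but its measured difference of -2.39 ± 0.69 turned to 0.17 under normexp correction. These bounds set the mean of the bright group against the lowest signal still called above background on the arrays of the other.

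Some of the largest falls, olfactory receptors among them, shared 1 profile. Of the 20 largest falls named, 7 had TAC array 1 more than 2 units above both other TAC arrays. Pde5a, which breaks down cyclic GMP, was at 2.90, -1.45 and -2.19 on the TAC arrays, against 4.33, 4.37 and 4.90 on the sham arrays, and Olfr441, an olfactory receptor, at 0.97, -2.50 and -2.92 on the TAC arrays, against 2.09, 1.91 and 2.32 on the sham arrays. Slc49a4 was at 3.20, -1.01 and -0.82 on the TAC arrays, against 4.11, 4.27 and 4.63 on the sham arrays, and Olfr681 at 1.56, -1.16 and -1.04 on the TAC arrays, against 2.35, 2.37 and 2.73 on the sham arrays. In each case TAC array 1 was below every sham array, and TAC arrays 2 and 3 were far below it. Over all 12 arrays the correlation with Olfr441 was at least 0.936 for these 7, a description of points that share arrays, slides and scans. The vomeronasal receptor Vmn1r227 (-3.00 ± 0.87) and the epididymal lipocalin Lcn6 (-3.17 ± 0.67) belong to them, and the other probe for Lcn6 gave -0.41. Sema3e, which was above background on 1 TAC array and 2 sham arrays, differed by -1.99 ± 0.51, or 0.30 under normexp correction. The part of a single array in these falls was not tested.

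**Figure D5:**
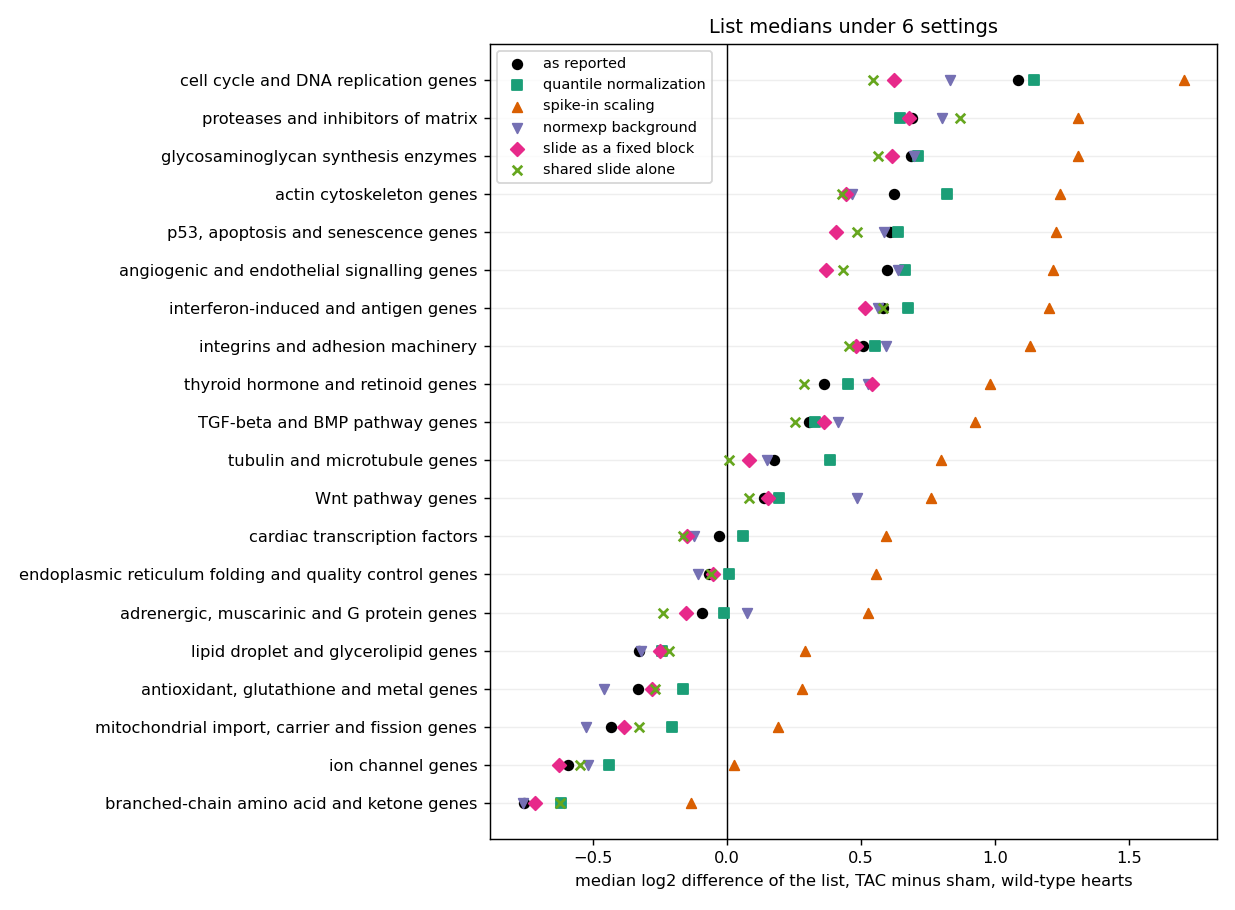
Median log2 difference (TAC minus sham, wild-type hearts) of the same 20 lists under 6 settings. Spike-in scaling (triangles) moves every list to the right, so that branched-chain amino acid genes stand at -0.14 and ion channel genes at 0.03.

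The TAC response of transgenic hearts was set against that of wild-type hearts with an interaction term, to test whether these changes were shared. It passed for 1793 genes, 7.08% of those tested, with a higher difference in transgenic hearts for 4.18% and a lower one for 2.9%. The term does not tell a different response from sham levels that already differed between genotypes. In transgenic hearts alone no gene passed limma's adjusted threshold and 1577 had an unadjusted p under 0.05. Transgenic sham array 2 stood apart, with 37.0% of probes well above background against 60.3% to 78.2% on the other arrays of both genotypes, and without it the interaction passed for 871 genes. Without wild-type TAC arrays 1 or 3 it passed for 581 and 484 genes, without wild-type sham arrays 1, 2 or 3 for 182, 582 and 141, and without transgenic TAC arrays 1 or 3 for 281 and 837. Differences in transgenic hearts were 0.87 for Dio2, 0.15 for Ech1 and 0.03 for Adcy7, and for each the interaction passed (adjusted p = 0.0126, 0.0123 and 0.0126). Dio2, Ech1 and Adcy7 were chosen by their wild-type change, which is part of the interaction, so these p-values are no independent support. For ion channel genes the interaction passed for 11 members as higher and 1 as lower in transgenic hearts, for branched-chain genes for 20 and 0, and for actin cytoskeleton genes for 0 and 15. It passed for 3 interferon-induced genes as lower and 1 as higher, and for 3 cell cycle genes as lower, so for most members of these lists a difference between the genotypes was not shown. No interaction passed with slide as a fixed block, where 5874 genes had an unadjusted p under 0.05.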

How the data were processed

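RNA from 12 left ventricles was hybridised to Agilent arrays of 1 colour. The deposited scanner files give a background-corrected, processed intensity per spot from Agilent Feature Extraction 10.7.3.1, per the file headers. The authors' deposited value table holds log2 values centred on each probe's median (correlation with the scanner values at least 0.9998), and was used as an alternative. The submitters' processing notes name RMA without giving its role.

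From the intensities, log2 minus each array's 75th percentile was computed over non-control probes, outlier spots were left out and spots of a probe averaged. A probe's accession was matched to RefSeq symbols for 26424 of 39429 probes. Group means over 12 arrays were fitted with limma 3.58.1 (R 4.3.3), and p-values were adjusted by Benjamini-Hochberg over 25330 genes or probes without a symbol. Slides, 5 in all, were tested as blocks. Figures used matplotlib 3.10.9. The fit was tested on simulated data.

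The genes and lists were chosen with earlier results of these data known. Named are, per list, the first 2 members, up to 6 passing members a direction by p and up to 4 not passing. Over all genes, named are up to 20 per direction by size of change, 15 by p, 10 among the brightest 5% and 8 by their lower bound. Alternatives covered background correction, scaling, filters, probes, variance, slide and each array left out. Among probes of the same gene as a passing probe, 1202 of 1415 had its direction and 20 passed in the opposite one. Some genes that the rule would name are not reported here. The number of arrays limits the precision.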

Additional observations from a re-analysis of the deposited data

Results flagged for a closer look

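The TAC response differed between transgenic and wild-type hearts for 92 of the genes named above that stood above background on at least 1 array of every group, as found by the interaction term of limma's model with Benjamini-Hochberg adjustment over all genes. Each value is the log2 response to TAC in transgenic hearts minus that in wild-type hearts, so a positive value means a higher response in transgenic hearts. It does not show whether the sham levels already differed. For Scn4b, Pfkfb1 and Acot1 every transgenic sham array was below every wild-type sham array. Scn4b stood at 0.36, -0.76 and -1.20 on transgenic sham arrays, against 2.91, 2.64 and 3.01 on wild-type ones. Transgenic sham levels of the other genes are not given. The value was positive for 41 genes and negative for 51. These 92 are of 190 named genes, while the interaction passed for 7.08% of all genes tested. Named genes were mostly chosen by their wild-type change, which is also a part of the interaction. The count of 92 and the signs therefore follow in part from that choice and are no independent support. In transgenic hearts alone no gene passed, transgenic sham array 2 stood apart, and no interaction passed with slide as a fixed block, so the part of that array and of the slides in these values was not tested further.

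Among genes of current, calcium and contraction the value was 1.55 for Kcnj3, 1.33 for Kcnj2, 2.83 for Kcnv2, 0.98 for Kcnk3, 4.28 for Scn4b, 1.34 for Hrc and 0.84 for Tnni3, and -1.26 for Pdlim7. Transcription factors and receptors gave 1.44 for Hopx, 1.12 for Ppara, 2.24 for Adra1a, 1.48 for Adra1b, 0.80 for Thrb, 1.29 for Rxrg and 1.13 for Lifr, and -1.80 for Klf5, -2.40 for Adcy7 and -3.80 for Dio2. In fatty acid and branched-chain metabolism it was 1.84 for Ech1, 1.36 for Acaa2, 1.51 for Eci1, 1.46 for Hadh, 3.58 for Acot1, 1.35 for Bckdha, 1.16 for Bckdhb and 1.18 for Aldh6a1, and -0.87 for Acsl5. For sugar and lipid genes the interaction was 3.22 for Pfkfb1, 1.04 for Slc2a4, 0.75 for Pfkm, 1.22 for Dgat2, 1.50 for G0s2, 1.39 for Fitm1 and 1.39 for Fdft1, and -1.15 for Agpat4 and -2.73 for Sqle. Genes of energy buffering, redox and mitochondria gave 1.43 for Nampt, 1.18 for Ckm, 1.78 for Gstk1, 1.28 for Gstm7, 1.38 for Slc25a20, 1.17 for Coq9 and 1.18 for Pink1, and -1.98 for Ada, -4.02 for Nox4 and -0.94 for Sod3. In translation and protein folding it was 0.87 for Eef1a2, 0.90 for Hspa5 and 0.72 for Canx, and -0.94 for Stt3a and -1.75 for Kdelr3.

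The cytoskeleton gave -0.98 for Myh9, -0.82 for Myh10, -1.27 for Capg, -1.25 for Rhoc, -1.0 for Tubb2a and -2.48 for Cnn1. Growth factor genes gave -2.31 for Tgfb2, -2.63 for Fstl1, -1.21 for Ltbp4, -1.54 for Bmp1, -2.83 for Frzb, -1.73 for Fzd1, -1.03 for Pdgfrb, -1.32 for Egfr, -1.73 for Igf1, -1.71 for Igfbp6, -2.24 for Robo1 and -4.52 for Thbs1, and 0.92 for Vegfb. Matrix enzymes, adhesion genes and protease inhibitors gave -1.80 for Sulf1, -1.54 for Chpf2, -1.13 for Dse, -2.06 for Mrc2, -2.73 for Adamts2, -1.76 for Pcolce, -2.55 for Itga11, -3.11 for Itgbl1, -2.94 for Adamts8, -2.89 for Serpinf1, -3.59 for Timp1, -3.78 for Mfap4 and -2.90 for Pamr1. The survival and death genes gave -1.41 for Bcl2 and 1.61 for Bcl2l11. Immune and vascular genes gave -1.01 for Oasl2, -0.68 for Stat2, -0.92 for Serping1, -1.39 for Trem2, -1.99 for Ccl17, -1.02 for Emcn and -1.49 for Pdpn.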

How the results depend on the processing

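The wild-type comparison was recomputed under 30 alternatives, and the count of 5377 genes was within 1.5 times of itself under most of them. It was 1330 with normexp background correction, 417 with slide as a fixed block and 9597 with array weights, and 2813 to 6203 with 1 of the 12 arrays left out. Higher calls made up 41.0% of the passing genes, against 52.5% with quantile normalization, 49.4% with median scaling, 49.3% with normexp, 51.2% with both normexp and quantiles, 98.2% with spike-in scaling and 58.0% with the slide block. The all-gene median was 0.27 with normexp. The interaction count of 1793 was 901 with quantile normalization, 616 with median scaling, 1107 with spike-in scaling, 0 with normexp (limma, 2810 at an unadjusted p under 0.05), 484 without a filter, 2795 for genes above background on all wild-type arrays, 3037 with trended robust variance and 0 with the slide block (limma, 5874 unadjusted). It ranged from 141 to 2354 with 1 array left out, the lowest without wild-type sham array 3. Same-numbered arrays showed no strong shared deviation (correlations of -0.103, -0.013 and -0.050). That cannot tell whether they were handled together, and they were not treated as pairs. With the replicate block 4546 genes passed in wild-type hearts and the interaction passed for 699.

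Of the 173 named genes that passed, 143 did not pass with slide as a fixed block, 53 with spike-in scaling, 63 with normexp and 18 with quantiles, all in the same direction. The sign turned with spike-in scaling for Adrb1 (0.04) and Thrb (0.14), and with normexp for Sema3e (0.30), Cenpf (0.24), Bcl2l11 (0.17) and Gata3 (0.17). Where only genes above background on all wild-type arrays were kept, another probe stood for Nox4 (-0.29) and Adamts8 (-0.70). Relative to all genes, the list median turned to -0.012 for smooth muscle and pericyte genes and -0.12 for tubulin genes with normexp. For circadian clock genes it lay between -0.31 and 0.0017 with 1 array left out. Apart from the probes exchanged by that filter, the causes of these changes were not tested. Probes near background limit the dimmest genes, of which 1.42% passed as higher and 0.829% as lower in the lowest of 10 equal groups by signal.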

Other observations

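Several gene groups were not described above, and their counts stand beside 8.7% of all genes higher and 12.5% lower. Of 36 renin-angiotensin and endothelin genes 9 rose and 5 fell (median 0.25). The Hippo and mechanosensitive list had 8 of 24 genes higher and 0 lower. Heat shock and folding genes had 2 of 43 higher and 8 lower, and proteasome and ubiquitin genes 0 of 43 higher and 6 lower. Of 56 lysosome and autophagy genes 8 rose and 7 fell. No ribosome biogenesis gene rose and 2 of 49 fell. Among 21 circadian clock genes 2 fell and 0 rose. Of 15 Schwann cell and nerve genes 1 rose and 4 fell, and of 18 skeletal muscle genes 0 rose and 4 fell. Olfactory receptors, chosen by their symbol, were above background for 465 of 1057 genes on the array, of which 1 rose and 37 fell.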
